A study of Rattus norvegicus with 9 samples.

Results

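Ptprc, Cd68, Cd163, Itgam, Csf1r, Aif1, Cd14, Lyz2 and Cd3e are marker genes of leukocytes, most of them of macrophages, and their RNA was followed here in whole rat kidney. Gene probes whose name in the array files was one of these 9 symbols were taken, which gave 9 of 26115 gene names and 13 of 30367 gene probes on the array, with more than 1 probe for 4 of the 9. The study asked how perfusion with MSC changes the RNA of kidneys exposed to warm ischaemia, in a model of donation after circulatory death. The donors were Fisher F344 rats, and each array measured the RNA of 1 kidney taken after 20 min. of warm ischaemia. The 5 NP kidneys were not perfused. The 4 MSC kidneys were perfused for 4 hrs at 4°C with Belzer solution (BS) that held 3000000 MSC, and against kidneys that were not perfused the effect of the cells and that of the perfusion cannot be told apart. The MSC were bone marrow stromal cells of Sprague Dawley rats transgenic for EGFP, grown in culture and negative for CD45 and CD11b, the proteins that Ptprc and Itgam encode. The labels are divided on the controls, since their treatment field gives no perfusion, as the study's methods do, but the titles speak of a perfusion of 4 hrs with BS at 4°C. The treatment field was followed. If the titles were right, each difference below would be one between perfusion with and without MSC.

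The healthy kidney holds a network of resident macrophages between its tubules, which take up debris, present antigen and answer to microbial products, along with small numbers of dendritic cells and lymphocytes. Resident macrophages depend on the receptor encoded by Csf1r and on its ligands, CSF1 and IL-34, for their survival. Blood that stays in the vessels of an excised kidney brings red cells, platelets, neutrophils and circulating lymphocytes into the same RNA.

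Itgam, Csf1r and Ptprc each had a probe on either side of the detection filter described below, and the probes of Itgam and Csf1r are shown here. The single probes of Cd163 and Cd3e, both under that filter, are shown with them. All are given from the 5′ end as deposited, each 60 bases long, with positions on rn4. The capitals mark the 34 bases that the 2 Itgam probes share, and the other sequences have no capitals.
Itgam A_43_P15993, chr1:187385032-187385565, plus strand: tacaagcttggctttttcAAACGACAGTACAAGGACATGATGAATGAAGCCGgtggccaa
Itgam A_64_P023848, chr1:187385524-187385583, plus strand: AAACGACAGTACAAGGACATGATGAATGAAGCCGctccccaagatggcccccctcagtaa
Csf1r A_44_P257582, chr18:57105231-57105932, plus strand: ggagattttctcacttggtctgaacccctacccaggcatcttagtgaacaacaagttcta
Csf1r A_64_P351634, chr18:57093036-57093095, plus strand: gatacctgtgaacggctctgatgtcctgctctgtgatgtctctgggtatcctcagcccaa
Cd163 A_64_P053012, chr4:160423704-160423763, plus strand: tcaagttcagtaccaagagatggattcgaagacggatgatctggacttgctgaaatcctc
Cd3e A_44_P103225, chr8:47950313-47950372, minus strand: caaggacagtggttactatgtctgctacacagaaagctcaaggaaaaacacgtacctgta
Of the 13 probes, 2 had ends further apart on rn4 than their own length and therefore cross an intron. These were the first Itgam probe, over 534 bases, and the first Csf1r probe, over 702 bases. Each of the others lies within 1 exon by its coordinates. The second Itgam probe ends with a stop codon and was designed on an Ensembl transcript, while the first was designed on the RefSeq one. Counted from the 5′ end of the first Itgam probe, the bases after the shared stretch differ from those of the second probe by G53C, G55C and G56C within the 8 positions that both cover.

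Detection was judged on each array against the negative control spots. The median negative control had a normalized log2 intensity of 7.82 to 7.86 over the 9 arrays, and a probe passed the filter when it was above a level of 8.69 to 8.81 on at least 4 arrays. Past the filter were 8 probes of 7 genes, and 15843 gene probes in all. Cd163 and Cd3e had no probe past it. The share of gene spots well above background was 67.7% to 72.9% in NP and 65.6% to 74.3% in MSC kidneys. The arrays lay on 2 slides, the first with NP 1, 2 and 3 and MSC 1 and 2, the second with NP 4 and 5 and MSC 3 and 4.

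**Figure D1:**
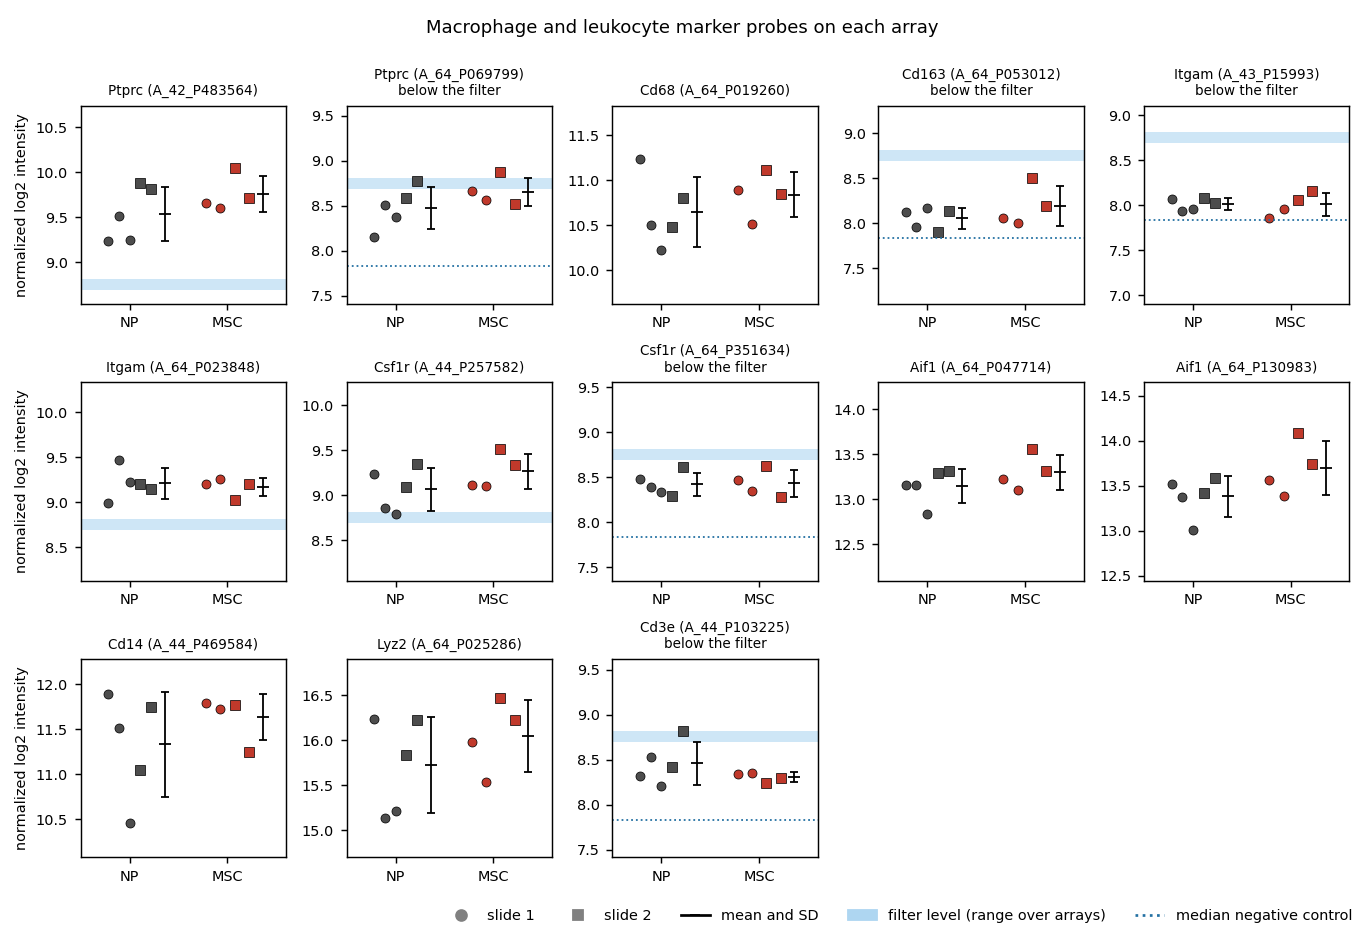
Normalized log2 intensity of each of the 13 probes on every array, in NP (grey) and MSC (red) kidneys, with circles for slide 1, squares for slide 2, the mean and SD of each group beside the points, the filter level as a blue band and the median negative control as a dotted line. Each panel spans the same log2 range around its own values. The groups overlap in all 13 panels.

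Probes of 7 of the 9 genes were measured above the filter in NP and MSC kidneys, and 7 of these 8 probes were higher in the MSC mean, by 0.15 to 0.32 on the log2 scale, while Itgam was 0.038 lower. Over all probes tested, 48.8% were higher. No difference of a member passed a test, with an FDR of 0.473 to 0.908 in limma. With a threshold of FDR under 0.05 and a fold change over 1.5, 0% of all probes tested were called in either direction. At an unadjusted p under 0.05, 0 of the 8 probes were called, against 11.7% of all probes. All MSC arrays lay above all NP arrays for 0 of the 8 probes, against 3.12% of all probes. The median log2 fold change of the 8 probes was 0.21, against -0.0049 over all probes tested. It was 0.11 without NP 3, 0.12 without MSC 3 and 0.17 to 0.29 without any other single array. In RNA of whole tissue, a different number of cells of a type and a different amount of RNA per cell cannot be told apart.

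Ptprc encodes CD45, the phosphatase on the surface of all leukocytes. The probe past the filter was spotted 10 times and read 9.23, 9.51, 9.25, 9.88 and 9.81 on NP 1 to 5 and 9.66, 9.60, 10.04 and 9.71 on MSC 1 to 4. The MSC arrays lay in the upper part of the NP range, and only MSC 3 was above it. The means were 9.54 ± 0.30 (SD, n = 5) and 9.75 ± 0.20 (SD, n = 4), a log2 fold change of 0.22 ± 0.16 (SE, FDR = 0.612 in limma), with a median SD of 0.093 between its 10 spots on an array. The NP kidneys of the second slide had the highest Ptprc values of their group, and the difference between groups was 0.30 within the first slide and 0.033 within the second. Without MSC 3 it was 0.12 and without NP 1 it was 0.14. The second Ptprc probe did not pass the filter, with 8.48 ± 0.23 (SD, n = 5) in NP and 8.66 ± 0.16 (SD, n = 4) in MSC kidneys, and it ordered the slides alike, with differences of 0.27 and 0.014 within them.

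Csf1r encodes the receptor for CSF1 and IL-34 that macrophages need. The probe across the intron read 9.23, 8.86, 8.80, 9.09 and 9.34 in NP and 9.12, 9.10, 9.51 and 9.34 in MSC kidneys. MSC 3 was again the highest, and the other MSC arrays lay among the NP ones. The log2 fold change was 0.20 ± 0.14 (SE, FDR = 0.577 in limma), with 0.15 within the first slide, 0.21 within the second and 0.12 without MSC 3. The other Csf1r probe lay under the filter at 8.42 ± 0.13 (SD, n = 5) and 8.43 ± 0.15 (SD, n = 4), though well above background on 5 NP and 3 MSC arrays, and it gave a difference of 0.0090. The probes of this gene therefore gave different sizes, of which only the first was measured above the filter.

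Aif1 encodes IBA1, a calcium-binding protein of the macrophage cytoskeleton that is a usual stain for these cells. The probe A_64_P130983, on a single spot, read 13.52, 13.38, 13.01, 13.42 and 13.59 in NP and 13.57, 13.39, 14.09 and 13.75 in MSC kidneys. MSC 3 and MSC 4 were above every NP kidney, whereas MSC 1 and MSC 2 lay within their range. This gave the lowest p of all the members, with a log2 fold change of 0.32 ± 0.16 (SE), an unadjusted p of 0.0743 and an FDR of 0.473 in limma. Its 95% interval ran from -0.037 to 0.67, and the log2 fold change was 0.19 without MSC 3. The neighbouring probe A_64_P047714, which starts 118 bases away, read 13.15 ± 0.19 (SD, n = 5) in NP and 13.30 ± 0.19 (SD, n = 4) in MSC kidneys, a log2 fold change of 0.15 ± 0.12 (SE, FDR = 0.652 in limma) that was 0.065 without MSC 3 and 0.070 without NP 3. NP 3 was the lowest and MSC 3 the highest array on both Aif1 probes.

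Cd68 and Lyz2 encode proteins of the macrophage lysosome, a membrane glycoprotein and lysozyme, and Lyz2 is shared with neutrophils. The Cd68 probe read 11.24, 10.51, 10.22, 10.48 and 10.80 in NP and 10.89, 10.51, 11.12 and 10.85 in MSC kidneys. The highest array was NP 1, and the MSC arrays lay within the NP range. The log2 fold change was 0.19 ± 0.20 (SE, FDR = 0.732 in limma), with 0.043 within the first slide and 0.34 within the second. It was 0.085 without NP 3, 0.10 without MSC 3, 0.34 without NP 1 and 0.30 without MSC 2. Lyz2 read 16.24, 15.14, 15.22, 15.83 and 16.22 in NP and 15.98, 15.53, 16.46 and 16.23 in MSC kidneys. The MSC values lay among the NP ones except for MSC 3, and the NP kidneys alone spanned over 1 log2 unit, from NP 2 to NP 1. The log2 fold change of Lyz2 was 0.32 ± 0.28 (SE, FDR = 0.668 in limma), and its levels were 0.54 higher on the second slide than on the first. The 2 spots of Lyz2 on NP 2 read 15.63 and 14.64, and without the lower one, where NP 3 became the lowest array, the log2 fold change was 0.22 ± 0.24 (SE, FDR = 0.745 in limma). Leaving out a whole array moved it to between 0.17 (without NP 2) and 0.50 (without MSC 2).

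Cd14 encodes the receptor that hands bacterial lipopolysaccharide to TLR4, on macrophages and, after injury, on tubular cells too. It read 11.90, 11.52, 10.46, 11.04 and 11.74 in NP and 11.79, 11.73, 11.77 and 11.25 in MSC kidneys. Of the MSC kidneys, 3 lay close together and MSC 4 was below them, while the NP kidneys were spread widely, with NP 3 the lowest. The log2 fold change of 0.30 ± 0.27 (SE, FDR = 0.684 in limma) had a 95% interval of -0.31 to 0.91. Without NP 3 it was 0.085, and it was between 0.23 and 0.44 without any other single array. Of the proteins that work with CD14, 4 of 7 genes listed had a probe past the filter. None of their 5 probes had an unadjusted p under 0.05, against 11.7% of all probes. With the slide as a block 1 of the 5 did, against 6.92% of all probes higher. It was a probe of Ly96, the MD-2 protein that binds lipopolysaccharide beside TLR4, with a log2 fold change of 0.22 ± 0.090 (SE, unadjusted p = 0.0393, FDR = 0.375 in limma). Fitted over all gene probes without the filter, the 2 Ly96 probes were 0.24 and 0.21 higher, with an unadjusted p of 0.0479 and 0.0387 in limma. In that fit 4.74% of all probes were higher at an unadjusted p under 0.05. The brightest of the 5 was that of Myd88, the adaptor of these receptors, with a log2 fold change of 0.13 ± 0.16 (SE, FDR = 0.774 in limma). Tlr4 itself was not past the filter.

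Itgam encodes CD11b, the integrin chain of macrophages, monocytes, neutrophils and NK cells. Its probes shared most of their sequence but not their detection. The probe that ends with the stop codon was well above background on 5 NP and 4 MSC arrays and read 8.99, 9.47, 9.23, 9.21 and 9.15 in NP and 9.20, 9.25, 9.03 and 9.20 in MSC kidneys. The MSC arrays lay inside the NP range, between NP 1 and NP 2. The log2 fold change was -0.038 ± 0.10 (SE, FDR = 0.908 in limma), and it was 0.025 without NP 2 and 0.011 without MSC 3. The probe across the intron was well above background on 0 NP and 0 MSC arrays, with levels between 7.85 and 8.16, and gives no fold change.

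Cd163 encodes a scavenger receptor for haemoglobin on resident macrophages. Its probe read 7.91 to 8.16 in NP and 8.002 to 8.50 in MSC kidneys, with at least 1 spot well above background on 1 NP and 1 MSC array, and MSC 3 was the highest. Cd3e encodes a chain of the T cell receptor complex. It read 8.32, 8.53, 8.21, 8.42 and 8.82 in NP and 8.34, 8.35, 8.24 and 8.29 in MSC kidneys, under the filter level on every array but NP 5. On NP 5 its 2 spots read 9.41 and 8.23, and without the first of these the log2 fold change moved from -0.15 ± 0.11 (SE) to -0.033 ± 0.071 (SE), with an unadjusted p of 0.652 in limma. All spots of Cd3e were well above background on 4 NP and 3 MSC arrays. For Cd163, whose spots were mostly not well above background, a difference was not detectable at these signals.

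**Figure D2:**
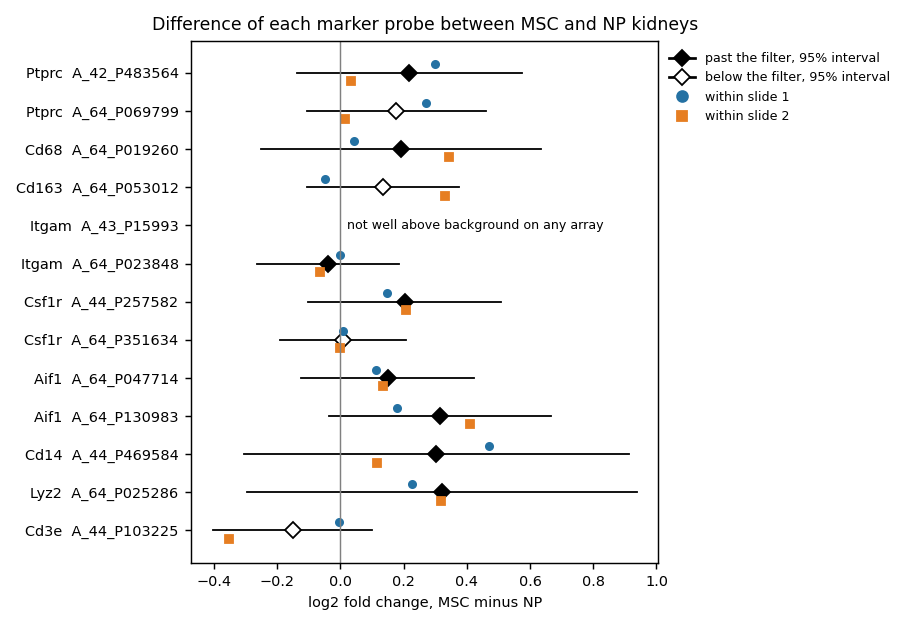
Log2 fold change of MSC over NP kidneys for the 13 probes, with the 95% interval of the limma fit (filled diamonds past the filter, open diamonds below it) and the differences within slide 1 (blue circles) and slide 2 (orange squares). All intervals drawn include 0, and the first Itgam probe is given no value because it was not well above background on any array.

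The arrays did not stand in the same order as the groups. The mean of the 8 probes, each centred on its own mean over the 9 arrays, was 0.089, -0.16, -0.47, -0.069 and 0.15 on NP 1 to 5 and 0.080, -0.071, 0.35 and 0.11 on MSC 1 to 4. NP 3 was the lowest array on 5 of the 8 probes and MSC 3 the highest on 5, and the rest of the arrays overlapped. On the second slide 6 of the 8 probes were higher than on the first, against 49% of all probes tested. With the slide as a block 7 of the 8 probes remained higher in MSC kidneys, against 48.7% of all probes, and 0 had an unadjusted p under 0.05, against 12.6% of all probes in either direction and 6.92% higher. Within each slide the count was also 7 of 8.

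The member probes varied together over the arrays, with Itgam as the exception. Pearson's r between a probe and the mean of the other 7 was 0.56 for Ptprc, 0.62 for Cd14, 0.80 for Cd68, 0.82 for Lyz2, 0.92 for Csf1r and 0.90 and 0.93 for the Aif1 probes, over 9 arrays. For Itgam it was -0.62. The arrays share their slides and the normalization, so that these values are a description. Among genes outside the members, the profiles most like the mean of the 8 probes were those of Rps4x, a ribosomal protein (r = 0.99), C1qa, a chain of complement C1q (r = 0.95), Sec31a, a coat protein of vesicles leaving the endoplasmic reticulum (r = 0.95), RGD1560601 (r = 0.95) and Cd53, a tetraspanin of leukocytes (r = 0.94), each over 9 arrays. C1qa, for example, read 13.13, 12.35, 12.01, 12.54 and 12.94 in NP and 12.87, 12.56, 13.34 and 12.73 in MSC kidneys, with its lowest value on NP 3 and its highest on MSC 3.

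No other gene of macrophages and monocytes passed a test. Of 29 such genes with a probe, 15 passed the filter, with 16 probes, of which 13 were higher in MSC kidneys and 3 lower. Their median log2 fold change was 0.19, with 0.11 without NP 2, 0.12 without NP 3 or without MSC 3, 0.29 without MSC 2 and 0.35 without NP 1, and 0 of the 16 had an unadjusted p under 0.05, against 6.5% of all probes higher and 5.15% lower. C1qc was 0.42 higher and Emr1, an adhesion receptor of macrophages now named Adgre1, 0.41 higher, while the fractalkine receptor Cx3cr1 had a log2 fold change of -0.41, Mertk, a receptor for dying cells, one of -0.28 and Lyve1 one of -0.12, and the lowest FDR of the list was 0.479 in limma. Cd74, the invariant chain of MHC class II and the brightest probe of the list, differed by 0.082 ± 0.11 (SE, FDR = 0.805 in limma). Without NP 1, 5 of the 16 probes had an unadjusted p under 0.05, all higher, with an FDR of at least 0.178, against 7.15% of all probes higher in that fit. On the other side, 6 of the 29 genes were well above background on no array, among them the mannose receptor Mrc1 and the monocyte chemokine receptor Ccr2. The summed intensity of the 16 probes was 84614 to 134580 in NP and 100933 to 129460 in MSC kidneys.

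The ligands of Csf1r differed between the groups by less than the spread between arrays. Il34, made by tubular cells and other tissue cells, was 15.07 ± 0.073 (SD, n = 5) in NP and 15.09 ± 0.12 (SD, n = 4) in MSC kidneys, and Csf1 differed by 0.12 on the log2 scale. Csf2ra, the binding chain of the GM-CSF receptor, was the exception in this list. It read 12.96, 13.001, 12.87, 13.02 and 12.72 in NP and 12.70, 12.51, 12.56 and 12.44 in MSC kidneys. All MSC kidneys were below all NP kidneys, which held for 2.13% of all probes, with a log2 fold change of -0.36 ± 0.089 (SE), an unadjusted p of 0.00245 and an FDR of 0.333 in limma. With the slide as a block Csf3, the gene of G-CSF, also had an unadjusted p under 0.05, at 0.30 ± 0.13 (SE, FDR = 0.387 in limma) higher. It was 1 of 5 probes of this list, against 6.92% of all probes higher at that p.

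Genes shared by all leukocytes or by myeloid signalling showed no common direction. Of 22 probes past the filter for 21 such genes, 10 were higher and 12 lower, with a median of -0.019. At an unadjusted p under 0.05, 1 probe was called in each direction, against 6.5% of all probes higher and 5.15% lower. Cd48, a surface ligand of leukocytes, was 0.43 ± 0.17 (SE, FDR = 0.395 in limma) higher. Cd52, a small glycoprotein abundant on lymphocytes and monocytes, was lower by a log2 fold change of -1.05 ± 0.32 (SE, FDR = 0.333 in limma). It read 10.66, 9.56, 9.67, 10.18 and 9.91 in NP and 8.19, 9.70, 8.58 and 9.30 in MSC kidneys, so that only MSC 2 reached the NP range. Cyba, a subunit of the phagocyte oxidase and the brightest probe of this list, differed by 0.075 ± 0.077 (SE, FDR = 0.731 in limma).

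Lymphocyte genes were mostly near background, like Cd3e. Of 21 T cell genes 7 passed the filter, with 8 probes of which 7 were lower in MSC kidneys. Of these probes 0 had an unadjusted p under 0.05, against 11.7% of all probes. The median of the 8 probes was -0.092, with -0.16 without NP 3, -0.060 without MSC 1 and -0.050 without NP 1. The other chains of the complex, Cd3d and Cd3g, did pass the filter and had log2 fold changes of -0.19 each, and Cd247, the zeta chain, had one of -0.11. Cd6, a T cell surface receptor and the brightest of the list, had one of 0.097 ± 0.16 (SE, FDR = 0.843 in limma). Foxp3, Cd28 and Ctla4 were well above background on no array. The summed intensity of the 8 probes was 6253 to 8157 in NP and 6515 to 7843 in MSC kidneys. The 5 probes past the filter in the NK and cytotoxic list were all lower, by a median of -0.099. It was -0.018 within the first slide and -0.29 within the second. Of the 5 probes, 0 had an unadjusted p under 0.05, against 11.7% of all probes. The brightest, of the transcription factor Tbx21, had -0.026 ± 0.23 (SE, FDR = 0.973 in limma). It read 16.15 in NP and 16.12 in MSC kidneys, far above the others of the list, and the source of this signal was not tested. Of the B cell genes 3 passed the filter, with 4 probes. At an unadjusted p under 0.05, 1 was higher and 1 lower, against 6.5% of all probes higher and 5.15% lower. The adaptor Blnk was 0.40 ± 0.15 (SE, FDR = 0.373 in limma) higher and Fcrla, an Fc receptor-like protein, had a log2 fold change of -0.30 ± 0.12 (SE, FDR = 0.391 in limma). The brightest, the B cell factor Pax5, had one of -0.11 ± 0.19 (SE, FDR = 0.849 in limma).

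The calprotectin subunits S100a8 and S100a9, proteins of neutrophils and monocytes, were lower in most MSC kidneys. S100a8 read 9.92, 10.27, 9.47, 9.71 and 9.92 in NP and 7.996, 10.05, 9.07 and 8.94 in MSC kidneys, a log2 fold change of -0.85 ± 0.34 (SE, FDR = 0.397 in limma). S100a9 had one of -0.95 ± 0.42 (SE, FDR = 0.422 in limma), with an unadjusted p of 0.0456 that was 0.0632 with the slide as a block. MSC 2 was among the NP kidneys for both genes, and the other 3 MSC kidneys were below them. These were 2 of the 4 probes past the filter for neutrophils and mast cells, against 5.15% of all probes lower at an unadjusted p under 0.05, and neither had such a p without MSC 1, without MSC 3, without MSC 4 or without NP 1, 2 or 5. Of the 18 genes of that list with a probe, 8 were well above background on no array, among them the granule gene Elane and the chemokine receptor Cxcr2. The summed intensity of the 4 probes was 3055 to 4542 in NP and 1868 to 4492 in MSC kidneys.

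**Figure D3:**
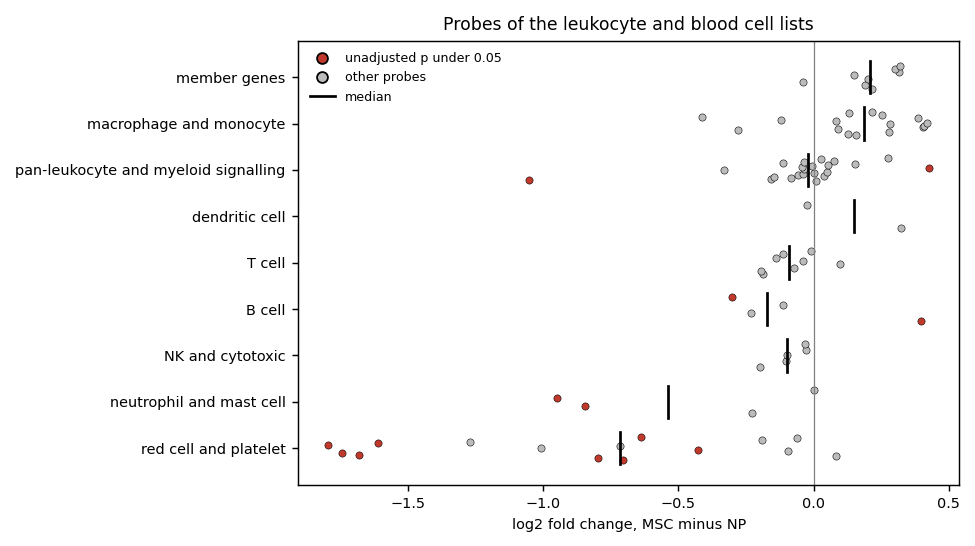
Log2 fold change of MSC over NP kidneys for each probe past the filter of the member genes and of 8 lists of other blood cell genes, with red points at an unadjusted p under 0.05 in limma and a bar at the median. The members and the macrophage and monocyte list have medians of 0.21 and 0.19, and the red cell and platelet list one of -0.72.

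Genes of red cells and platelets, which mark blood left in the vessels, were lower in the MSC group, and this rested on part of the arrays. Of 15 probes past the filter, 14 were lower, with a median of -0.72, and 8 were lower at an unadjusted p under 0.05 (all FDR at least 0.349 in limma), against 5.15% of all probes. The median was -0.41 without MSC 1 and -1.02 without MSC 2. The count was 1 probe without MSC 3 (3.26% of all probes were then lower at that p). It was 2 without MSC 1 (3.54%), NP 1 (9.15%) or NP 4 (4.71%), and 4 without NP 5 (5.06%). Without MSC 4 it was 11 (3.73%), and leaving out any other array gave 7 to 10. Alas2, the enzyme of haem synthesis in red cell precursors, read 12.51, 11.16, 11.54, 12.44 and 11.78 in NP and 8.26, 11.53, 9.61 and 11.16 in MSC kidneys. MSC 1 and MSC 3 were low, and MSC 2 and MSC 4 were within the NP range. Ahsp, the chaperone of alpha globin, had a log2 fold change of -0.80 ± 0.31 (SE, FDR = 0.386 in limma) and Gp1bb, a platelet adhesion receptor, one of -0.43 ± 0.16 (SE, FDR = 0.386 in limma). The brightest probe, of the alpha globin Hba1, had -0.72 ± 0.48 (SE, FDR = 0.577 in limma). The summed intensity of the 15 probes was 1000662 to 1441551 in NP and 155995 to 1243308 in MSC kidneys. MSC 3, low in red cell genes, had the highest mean of the 8 member probes, and how member and red cell levels relate over the arrays was not tested.

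Genes of fat, which surrounds the kidney, were higher on MSC 3 and MSC 4. The 11 probes past the filter had a median of 1.23, with -0.20 within the first slide and 2.71 within the second, 0.51 without MSC 3 and 1.83 without MSC 1. At an unadjusted p under 0.05, 3 of the 11 were higher, against 6.5% of all probes. The count was 8 without MSC 1 (4.90% of all probes) and 10 with the second slide alone (3.59%), where the lowest FDR was 0.00469 in limma, while with the first slide alone 0 were higher and 1 was lower. Their mean centred level was 2.04 on MSC 3 and 1.29 on MSC 4, against at most 0.076 on any other array. Adipoq, the adipocyte hormone adiponectin, read 11.67, 10.61, 10.98, 10.44 and 10.61 in NP and 10.92, 11.78, 13.83 and 12.63 in MSC kidneys, a log2 fold change of 1.43 ± 0.51 (SE, FDR = 0.353 in limma). The lipid droplet proteins Cidec and Cidea had 0.36 ± 0.12 (SE, FDR = 0.333 in limma) and 0.62 ± 0.28 (SE, FDR = 0.422 in limma), of which Cidea had an unadjusted p of 0.061 with the slide as a block. Pck1, an enzyme of gluconeogenesis that the tubule also expresses and the brightest of the list, had -0.076 ± 0.14 (SE, FDR = 0.866 in limma). The summed intensity of the 11 probes was 100728 to 109037 in NP and 75431 to 225997 in MSC kidneys, and only leptin, Lep, was well above background on no array. MSC 3, the array highest in fat genes, was also the highest on 5 of the 8 member probes, and the part of fat in the member values was not tested. The median of the 8 member probes was 0.16 within the first slide and 0.17 within the second. On the first slide their mean centred level was 0.089, -0.16 and -0.47 on NP 1 to 3 and 0.080 and -0.071 on MSC 1 and 2, so that the difference there rested mainly on NP 3.

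**Figure D4:**
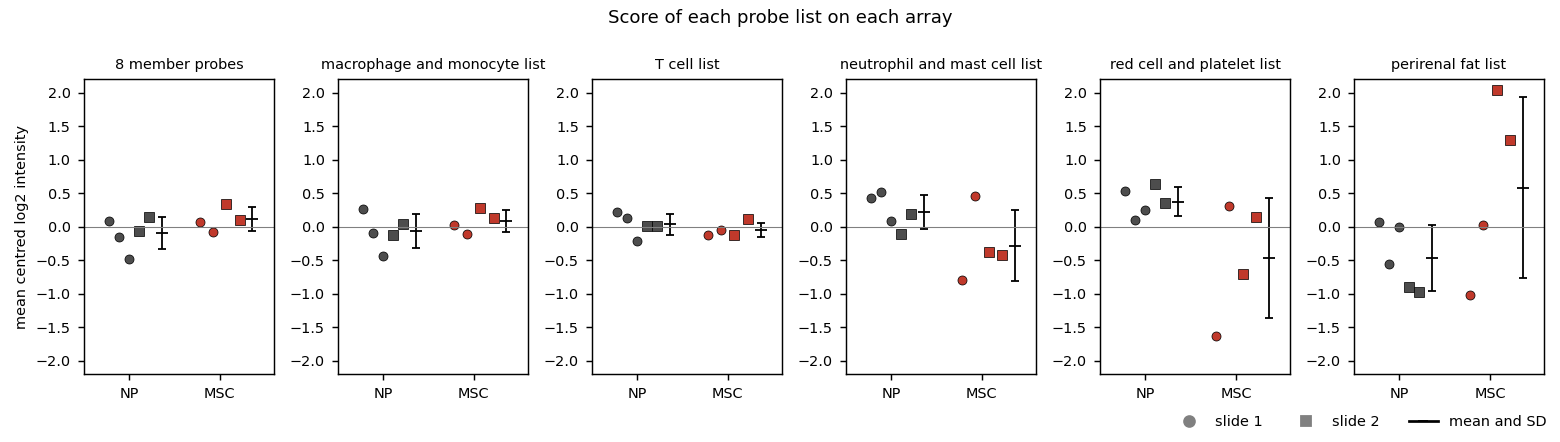
Mean of the centred log2 intensities of the 8 member probes and of 5 lists on each array, with circles for slide 1, squares for slide 2 and the mean and SD of each group. The member mean is lowest on NP 3 and highest on MSC 3, the red cell list is lowest on MSC 1, and the fat list is highest on MSC 3 and MSC 4.

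Other cell types of the kidney gave the background for these values. All 10 genes of the proximal tubule list passed the filter, and 10 of its 12 probes were higher and 2 lower, with a median of 0.15 that was 0.17 within the first slide and 0.098 within the second. At an unadjusted p under 0.05, 3 of the 12 were higher, against 6.5% of all probes, namely the glucose transporter Slc5a2 at 0.44 ± 0.13 (SE, FDR = 0.333 in limma), the lactate transporter Slc5a12 at 0.47 ± 0.15 (SE, FDR = 0.333 in limma) and the water channel Aqp1 at 0.24 ± 0.10 (SE, FDR = 0.417 in limma). The brightest, the dicarboxylate transporter Slc13a3, was 0.11 ± 0.12 (SE, FDR = 0.740 in limma) higher. In the endothelial list 6 of 12 probes were higher and 6 lower, and 2 were lower at that p, against 5.15% of all probes, both of Vwf, with a log2 fold change of -0.23 ± 0.078 (SE, FDR = 0.334 in limma) for 1 of them. With the slide as a block 2 others were higher at that p, against 6.92% of all probes, Emcn at 0.41 ± 0.15 (SE, FDR = 0.347 in limma) and Tie1 at 0.23 ± 0.086 (SE, FDR = 0.346 in limma). The brightest, the endothelial protein Plvap, had 0.015 ± 0.22 (SE, FDR = 0.986 in limma) without the block. In the stromal list, which holds genes that MSC express too, 10 of 15 probes were higher and 5 lower, with a median of 0.046. At that p 2 were higher, against 6.5% of all probes, both of Col1a1, at 1.06 ± 0.29 (SE, FDR = 0.333 in limma) for 1 of them. The 5 lower probes were those of Cd44 (-0.27), Pdgfrb (-0.21), Prrx1 (-0.18 and -0.16) and Pdgfra (-0.12). With the slide as a block Eng was also higher at that p, at 0.42 ± 0.12 (SE, FDR = 0.286 in limma), against 6.92% of all probes. The brightest, Col1a2, was 0.57 ± 0.32 (SE, FDR = 0.507 in limma) higher without the block. Whether RNA of the MSC adds to these values was not tested. The 2 dendritic cell genes past the filter had a median of 0.15 and no unadjusted p under 0.05, against 11.7% of all probes. Fscn1, the brighter, had -0.024 ± 0.17 (SE, FDR = 0.967 in limma).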

How the data were processed

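RNA of 9 kidneys was measured on Agilent rat arrays of 1 colour. The authors deposited raw spot intensities from Agilent Feature Extraction and a table of normalized log2 values, made by them with limma. Here the mean pixel intensity of each spot was log2 transformed and normalized by cyclic loess (R 4.3.3, limma 3.58.1, the data.table package, version 1.17.8), without control spots and spots flagged as outliers (273 to 593 per array). Pearson's r between these values and the authors' deposited log2 table ran from 0.999898 to 0.999973. The filter of the methods was read as a log2 value above 1.1 times the 95th percentile of the 308 negative controls on at least 4 arrays. It can be read otherwise. Spots of a probe were averaged, and all probes of a gene were kept and compared with limma's linear model and Benjamini-Hochberg FDR over 15843 probes. Members under the filter were fitted over all 30367 probes. A call needed an FDR below 0.05 and a fold change above 1.5. Intervals are 95%. No column of sample values was left unused (0 columns).

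The members and the 14 lists (218 genes) were chosen with earlier results of these data known. Named are all members, in each list the brightest gene and up to 3 genes with the smallest unadjusted p under 0.05, and the 5 genes most like the members. C1qc, Emr1, Cx3cr1, Mertk, Lyve1, Csf1, Cd3d, Cd3g, Cd247, Tlr4, Ly96, Cd44, Pdgfrb, Prrx1, Pdgfra, genes that pass only with the slide as a block and genes named as undetected were picked after their values were seen. Alternatives changed the intensity column, normalization, filter, probe choice, variance model, block or arrays. Each array is a separate kidney, and their number limits precision. The probes and coordinates are those of the array files (rn4). A RefSeq name table held the accession of 12 of the 13 member probes. The steps were tested on simulated data. An MSC array that the authors discarded was not analysed here.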

Additional observations from a re-analysis of the deposited data

Results flagged for a closer look

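In 4 of 54 groups of arrays tested for a value apart from the rest, 1 array stood apart by Dixon's ratio (its gap to the nearest array over the range of the group), where chance gives about 1 in 20, or 2.7. For Cd14, the receptor of lipopolysaccharide, MSC 4 read 11.25 against 11.73 to 11.79 on the other MSC arrays (ratio 0.879). The mean centred level of the CSF1 and CSF receptor genes was 0.15 on NP 2 against -0.066 to -0.010 on the other NP arrays (ratio 0.743). That of the NK and cytotoxic genes was -0.12 on MSC 3 against -0.032 to -0.018 on the other MSC arrays (ratio 0.86). That of the proximal tubule genes was 0.032 on MSC 1 against 0.12 to 0.13 on the other MSC arrays (ratio 0.923).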

How the results depend on the processing

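In 26 alternatives, 9 of which left out 1 array and 2 of which (the arrays of each slide alone) were chosen after seeing the data, the median of the 8 member probes stayed between 0.11 and 0.30. The count of probes called over the whole array was 0 in each direction, except for 2 higher in MSC kidneys with array weights and 4 with the second slide alone, namely Cfd, Retn and Ucp1 of the fat list and Cox8b. Leaving out 1 array gave 0 to 0 calls and a member median of 0.11 to 0.29. The difference of Itgam ran from -0.093 to 0.025 when 1 array was left out, with 0.025 without NP replicate 2 and 0.011 without MSC replicate 3, and the median of the fat genes to -0.20 with the first slide alone (2.71 with the second), and the cause was not tested. Aif1 A_64_P130983 had an unadjusted p of 0.028 without MSC replicate 2 and 0.031 with the second slide alone, and the other 7 probes past the filter had no p under 0.05 in the alternatives run. For member probes under the filter, the values reported are those with the slide as a block (no p under 0.186), within each slide and, for Cd3e, without 1 spot. Of the 16 macrophage and monocyte probes, 0 had an unadjusted p under 0.05, but 5 were higher at that p without NP replicate 1 (7.15% of all probes) and with the second slide alone (3.59%), 2 with 75th percentile scaling (4.86%), array weights (8.07%) or without MSC replicate 2 (4.96%), and 1 with the processed signal (6.32%). Leaving out 1 discordant spot, also chosen after seeing the data, gave 0.22 for Lyz2 and -0.033 for Cd3e. The values on deposited log2 data, processed signals and normexp used the probes of the main filter. Same-numbered NP and MSC arrays gave mixed correlations (r from -0.35 to 0.32 over 4 pairs), and 2 of the 4 MSC arrays correlated best with their own number. So few values cannot settle whether the numbers pair kidneys. With the replicate number as a block, a replicate block gave 0 calls and a member median of 0.28. Cd163, Cd3e and 1 probe each of Ptprc, Csf1r and Itgam did not pass the filter.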
